A study of Mus musculus with 6 samples.

Results

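Collagen chain transcripts were measured in heart muscle cells of TFEB-/- mice (3 libraries) and of wild-type (WT) mice (3 libraries), all C57BL/6 animals aged 3 months. TFEB is a transcription factor that activates lysosomal and autophagy genes. The labels give the genotype TFEB-/- without the allele, the promoter of any Cre or whether other cell types also lack the gene, and they do not say that each library came from a separate mouse. The collagen chains were the 44 entries, of 46517 in the deposited table, whose gene name is Col, a number, a and a number. Of these, 26 reached at least 1 CPM in at least 3 of the 6 libraries and were tested, 3 (Col7a1, Col22a1 and Col26a1) had some signal below that level, and 15 were listed at 0 in every library.

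Collagens are the main structural proteins of the extracellular matrix. Each chain carries long stretches of Gly-X-Y units, and chains join into a triple helix in which glycine fills the centre. In the heart, fibroblasts are the main source of the fibrillar collagens I and III, which form the stiff network between muscle bundles, while collagen IV forms the sheet-like basement membrane around each cardiomyocyte and each capillary. Collagen VI makes beaded filaments that link this sheet to the fibrils, and collagens XV and XVIII sit at the outer face of basement membranes.

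The repeat that unites the family is visible in the coding sequence. Stretches of 24 codons are shown for the most abundant fibrillar chains and for both main chains of collagen IV, with every glycine codon in capitals, since the values below depend on whether reads of such similar chains can be told apart. They are taken from the longest protein-coding transcript of each gene in GENCODE M21 (GRCm38), on the coding strand, with codons counted from the start codon.
Col1a1, chromosome 11, codons 675 to 698: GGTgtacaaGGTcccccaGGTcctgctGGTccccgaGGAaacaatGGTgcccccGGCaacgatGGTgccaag
Col1a2, chromosome 6, codons 604 to 627: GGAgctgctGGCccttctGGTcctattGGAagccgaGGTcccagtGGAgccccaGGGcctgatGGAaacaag
Col3a1, chromosome 1, codons 680 to 703: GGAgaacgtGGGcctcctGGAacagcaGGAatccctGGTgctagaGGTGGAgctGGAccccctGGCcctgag
Col4a1, chromosome 8, codons 151 to 174: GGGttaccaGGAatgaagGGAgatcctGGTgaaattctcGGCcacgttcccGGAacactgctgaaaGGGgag
Col4a2, chromosome 8, codons 963 to 986: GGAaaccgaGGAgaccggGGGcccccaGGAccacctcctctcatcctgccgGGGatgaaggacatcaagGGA

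In the fibrillar stretches shown the unit runs on without a break, and in the collagen IV stretches it is interrupted. The former were taken from the middle of the longest run and the latter across its end. The contrast between the printed stretches therefore follows from where they were taken. The longest unbroken run was 338 units in Col1a1, 339 in Col1a2 and 344 in Col3a1, but 217 in the minor fibrillar chain Col27a1. It was 40 units in Col4a1 and 66 in Col4a2, whose repeats were split into 22 and 24 runs of at least 5 units. Few exact words of 31 bases were nevertheless shared with transcripts of other genes. Any differing base breaks such a word, so the count does not measure how alike the chains are. Col4a1, Col1a2, Col6a1 and Col15a1 shared no 31-base word with a transcript of any other gene, and among the 9 most abundant chains the largest share was 2.01% of the words, in Col3a1. Among all tested chains it reached 5.92% in Col4a3, with C430014B12Rik, and Col6a6 shared 4.91%, most of it with its neighbour Col6a5. The labels name a stranded library kit, but whether strand was used in the quantification is not given in the sources used here.

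Col4a1 (ENSMUSG00000031502; GRCm38 chromosome 8, 11198423 to 11312826, minus strand) and Col4a2 (ENSMUSG00000031503; chromosome 8, 11312805 to 11449287, plus strand) are transcribed away from each other from a common start region. The annotated first exons overlap by 22 bases. These bases are shown in capitals with 4 bases on either side (chr8:11312801-11312830, RefSeq GRCm38.p6). Whether the common start bears on the ratio of this pair, described below, was not tested.
Col4a2 strand (plus): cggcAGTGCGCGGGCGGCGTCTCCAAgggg
Col4a1 strand (minus): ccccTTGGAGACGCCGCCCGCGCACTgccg

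Col4a3 and Col4a4 on chromosome 1 (71 bases apart) and Col4a5 and Col4a6 on chromosome X (1308 bases apart) are arranged in the same divergent way.

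The other abundant chains lie apart from each other (GRCm38, GENCODE M21). Col1a1 spans 94936224 to 94953042 of chromosome 11, Col1a2 spans 4504814 to 4541544 of chromosome 6, and Col3a1 spans 45311538 to 45349706 of chromosome 1. Col15a1 spans 47208161 to 47313167 of chromosome 4 and Col4a5 spans 141475385 to 141689234 of chromosome X, all 5 on the plus strand. Col6a2 (76595762 to 76623630) and Col6a1 (76708792 to 76726168) lie on the minus strand of chromosome 10, with 85161 bases between them.

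RefSeq promoter windows, from 250 bases before to 50 bases after the start, were at hand for 22 of the 26 tested chains. None of the 22 windows contained the letters CACGTG, the core of the E-box that TFEB binds, on either strand, while 11.8% of the 9399 tested genes with a window did. CCAAT, on either strand, was found in 7 of the 22, among them Col1a2, Col4a1 and Col4a2, and in 42.9% of the tested genes with a window. TATAAA, on either strand, was found in 3 of the 22, Col11a2, Col13a1 and Col3a1, and in 8.68% of those genes. These are matches of letters within the window and not measured binding.

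The deposited values are whole numbers whose sum was between 999505 and 999655 in each library. They were taken to be CPM, reads scaled to a common library total, rounded by the authors, so 1 CPM is the smallest step, the number of reads behind a value is unknown and no counting error can be given. The targeted gene Tfeb was at 6, 5 and 7 CPM in TFEB-/- libraries and at 17, 30 and 23 CPM in WT libraries (log2 fold change −1.85, SE 0.24, adjusted p = 0.0267 in limma; the call was lost in 6 of 14 alternatives, at adjusted p up to 0.112). Transcripts of the mitochondrial genome made up 22.2 to 30.3% of the TFEB-/- libraries and 30.7 to 44.6% of the WT libraries, and the 12437 tested genes had a median log2 fold change of 0.24. Tests used limma on log2(CPM + 0.5), with Benjamini-Hochberg adjustment over these 12437 genes and a threshold of 0.05. Fold changes are TFEB-/- over WT, and ± gives the SD of 3 libraries.

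None of the 26 tested collagen chains passed the threshold in limma, where 4.44% of all tested genes did. At an unadjusted p below 0.05 there was 1 chain, Col18a1, against 23.3% of all tested genes (21.1% higher and 2.3% lower in TFEB-/-). It was higher in TFEB-/-, and the direction of this count turned with the scaling. At the same unadjusted p, 0 chains were higher and 4 lower with median-ratio scaling (1552 higher and 1218 lower of the 12437 tested genes). The chain counts were 0 and 2 with libraries rescaled without mitochondrial genes (1598 and 1142 of 12424 genes). With quantile normalization they were 0 and 1 (1476 and 1253 of 12437 genes). Counts of so few chains say little about a direction. The smallest adjusted p was 0.086. The log2 fold change was above 0 in 12 chains, below 0 in 10 and 0 in 4, with a median of 0 beside the median of 0.24 for all tested genes, and 19 of the 26 lay below that median. The 95% interval lay between a halving and a doubling for 15 chains, 3 of which were at the same rounded value in all 6 libraries, where the fitted interval is narrower than the rounding step. For the other chains the data leave room for a change of that size in at least one direction.

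**Figure D1:**
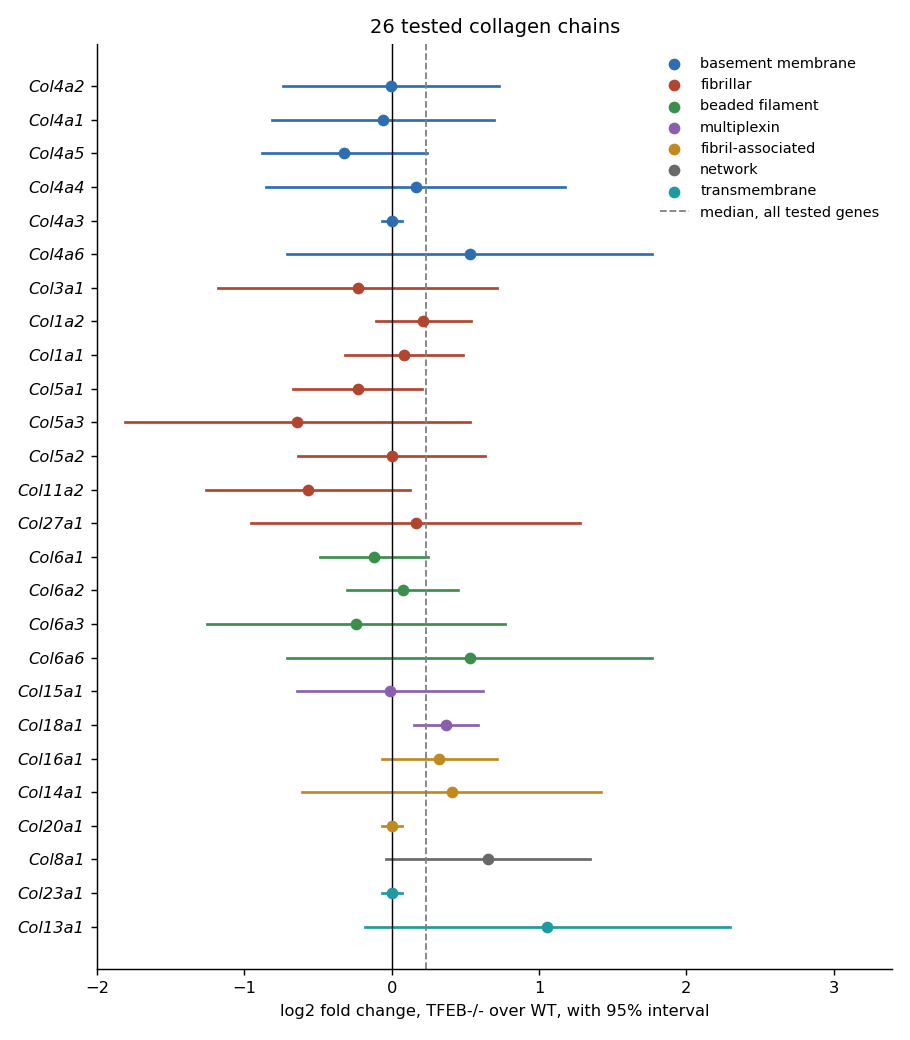
Log2 fold change (x axis, TFEB-/- over WT) with its 95% interval from limma for each of the 26 tested collagen chains (rows, ordered by class and then by level). The solid line marks 0 and the dashed line the median of all tested genes, 0.24. Only the interval of Col18a1 lies wholly on one side of 0, and its adjusted p was 0.086.

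The basement membrane chains Col4a1 and Col4a2, which assemble as the common heterotrimer of collagen IV, dominated the family. Col4a1 was at 194, 180 and 140 CPM in TFEB-/- libraries, against 262, 153 and 138 CPM in WT libraries. Col4a2 was at 259, 229 and 174 CPM in TFEB-/- libraries, against 313, 184 and 181 CPM in WT libraries. In both genes the first WT library was the highest of all, the other WT libraries lay near the lowest TFEB-/- library, and the groups overlapped. The means of Col4a1 were 171 ± 28.0 CPM in TFEB-/- and 184 ± 67.7 CPM in WT (log2 fold change −0.06, SE 0.29, adjusted p = 0.948 in limma), with a 95% interval from 0.569-fold to 1.62-fold. Those of Col4a2 were 221 ± 43.1 CPM in TFEB-/- and 226 ± 75.4 CPM in WT (log2 fold change −0.0049, SE 0.28, adjusted p = 1 in limma), with an interval from 0.6-fold to 1.65-fold. Without the first WT library the log2 fold changes were 0.22 and 0.25, and neither passed (adjusted p = 0.424 for both in limma).

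Together the pair made up 72.0, 68.2 and 68.9% of all collagen CPM in TFEB-/- libraries, and 73.2, 69.6 and 66.0% in WT libraries. Per length of transcript, Col4a2 was the most abundant chain, at 34.2 ± 6.68 CPM per kb in TFEB-/- and 35.0 ± 11.7 CPM per kb in WT. Col4a1 followed with 25.9 ± 4.24 CPM per kb in TFEB-/- and 27.9 ± 10.2 CPM per kb in WT. The gap between the pair was within the spread over libraries, but within each library the ratio hardly varied. The ratio of Col4a2 to Col4a1 per length was 1.37, 1.30 and 1.27 in TFEB-/- libraries, against 1.23, 1.23 and 1.35 in WT libraries. Col4a2 was thus the higher of the pair in all 6 libraries, and the ratios of the groups overlapped. The WT ratios ran from 1.23 to 1.35 while the WT level of Col4a1 ran from 138 to 262 CPM.

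The other collagen IV chains were much less abundant. Col4a5, which forms a separate network with Col4a3 and Col4a4 or with Col4a6, was at 13, 14 and 10 CPM in TFEB-/- libraries, against 20, 14 and 13 CPM in WT libraries. The groups overlapped (log2 fold change −0.32, SE 0.22, adjusted p = 0.405 in limma; 95% interval 0.543-fold to 1.18-fold). The ratio of its level per length to that of Col4a1 was 0.0729 ± 0.00548 in TFEB-/- and 0.0884 ± 0.00975 in WT. Col4a3 was listed at 1 CPM in all 6 libraries, and Col4a4 and Col4a6 did not exceed 3 CPM in any.

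**Figure D2:**
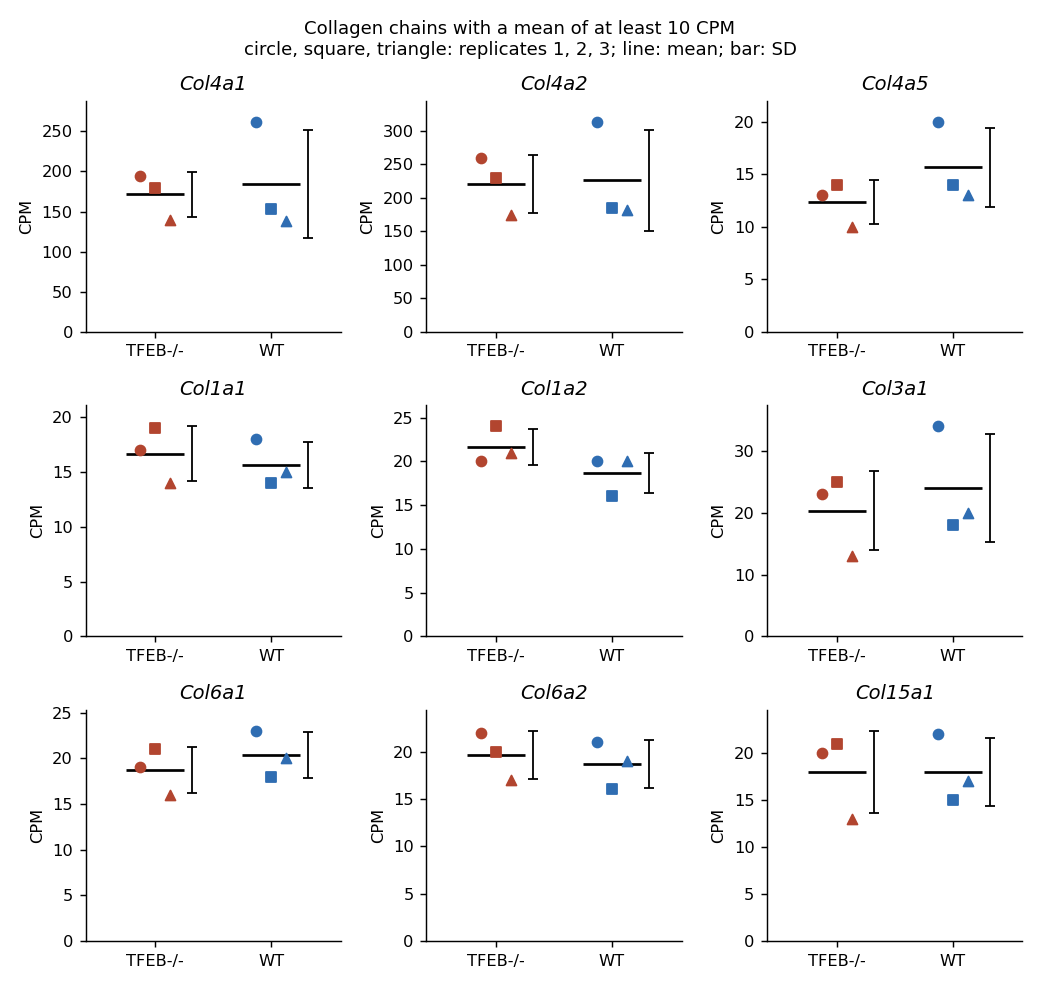
Values in CPM (y axis, from 0) of the 9 collagen chains with a mean of at least 10 CPM, in the 3 TFEB-/- and 3 WT libraries. Symbols mark replicates 1, 2 and 3, lines the means and bars the SD. The groups overlap in all 9 chains, and WT replicate 1 is the highest WT library in each except Col1a2, where it ties with replicate 3.

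The fibrillar chains of collagens I and III, the main products of cardiac fibroblasts, were at similar levels in both groups. Col1a1 was at 17, 19 and 14 CPM in TFEB-/- libraries and at 18, 14 and 15 CPM in WT libraries. Its partner Col1a2 was at 20, 24 and 21 CPM in TFEB-/- libraries and at 20, 16 and 20 CPM in WT libraries. Neither gene separated the groups, with log2 fold changes of 0.08 (SE 0.15, adjusted p = 0.754 in limma) and 0.21 (SE 0.12, adjusted p = 0.342). They became −0.15 and −0.02 when libraries were rescaled by median ratios, so neither sign was stable. The 95% intervals on the deposited scale ran from 0.805-fold to 1.40-fold for Col1a1 and from 0.927-fold to 1.45-fold for Col1a2.

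Col3a1, the chain of the thin and more elastic collagen III fibrils, was at 23, 25 and 13 CPM in TFEB-/- libraries and at 34, 18 and 20 CPM in WT libraries. The highest value was in WT and the lowest in TFEB-/-, with the other 4 libraries between them (log2 fold change −0.23, SE 0.36, adjusted p = 0.708 in limma). Its 95% interval, 0.443-fold to 1.64-fold, was the widest of the 9 abundant chains and was the only one of them to include a halving. The summed CPM of Col1a1, Col1a2 and Col3a1 was 60, 68 and 48 in TFEB-/- libraries and 72, 48 and 55 in WT libraries.

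Collagen I is built from a pair of alpha-1 chains and a single alpha-2 chain, yet Col1a1 was the less abundant transcript per length. The ratio of Col1a1 to Col1a2 per length was 0.767, 0.714 and 0.601 in TFEB-/- libraries and 0.812, 0.789 and 0.676 in WT libraries. It was below 1 in all 6 libraries, and the groups overlapped. Per length the transcript of Col3a1 was above that of Col1a1 in 5 of 6 libraries, with ratios of 1.44, 1.40 and 0.990 in TFEB-/- and of 2.01, 1.37 and 1.42 in WT. These ratios rest on the longest annotated transcript and on CPM that were not already scaled by length, which is not stated.

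Of the minor fibrillar chains, those of collagen V, which sit inside collagen I fibrils and set their diameter, were the most abundant. Col5a1 was at 6, 8 and 7 CPM in TFEB-/- libraries and at 10, 7 and 8 CPM in WT libraries, Col5a2 averaged 4 ± 1 CPM in either group, and Col5a3 averaged 3 ± 1 CPM in TFEB-/- and 5.33 ± 3.21 CPM in WT. The negative log2 fold change of Col5a3, −0.64 (SE 0.45, adjusted p = 0.424 in limma), was the lowest of all 26 chains and rested on the first WT library, at 9 CPM against 4 and 3 CPM in the other WT libraries. Col11a2 and Col27a1, better known from cartilage, stayed between 1 and 3 CPM in every library. The cartilage chain Col2a1 was listed at 0 throughout, as were Col11a1 and Col24a1.

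The beaded filament chains Col6a1 and Col6a2 were as abundant as the collagen I chains. Col6a1 was at 19, 21 and 16 CPM in TFEB-/- libraries, against 23, 18 and 20 CPM in WT libraries. Col6a2 was at 22, 20 and 17 CPM in TFEB-/- libraries, against 21, 16 and 19 CPM in WT libraries. The groups overlapped in both genes, with log2 fold changes of −0.12 (SE 0.14, adjusted p = 0.613 in limma) and 0.07 (SE 0.15, adjusted p = 0.775), and both 95% intervals were within 0.713-fold and 1.37-fold. The sign for Col6a2 turned with median-ratio scaling, at −0.16. The ratio of Col6a1 to Col6a2 per length was 0.980, 1.19 and 1.07 in TFEB-/- and 1.24, 1.28 and 1.19 in WT. The highest TFEB-/- ratio, 1.192, lay just below the lowest WT ratio, 1.195, a gap smaller than 1 rounding step of either gene.

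Col6a3, the long chain that completes the collagen VI heterotrimer, was at 5, 4 and 2 CPM in TFEB-/- libraries and at 6, 3 and 4 CPM in WT libraries. Per length it was at 0.0783 ± 0.0280 of the level of Col6a1 in TFEB-/- and at 0.0849 ± 0.0194 in WT. Its transcript is 10.1 kb long, against 4.1 kb for Col6a1. Col6a6 stayed at 0 or 1 CPM, and Col6a4 and Col6a5 were listed at 0.

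**Figure D3:**
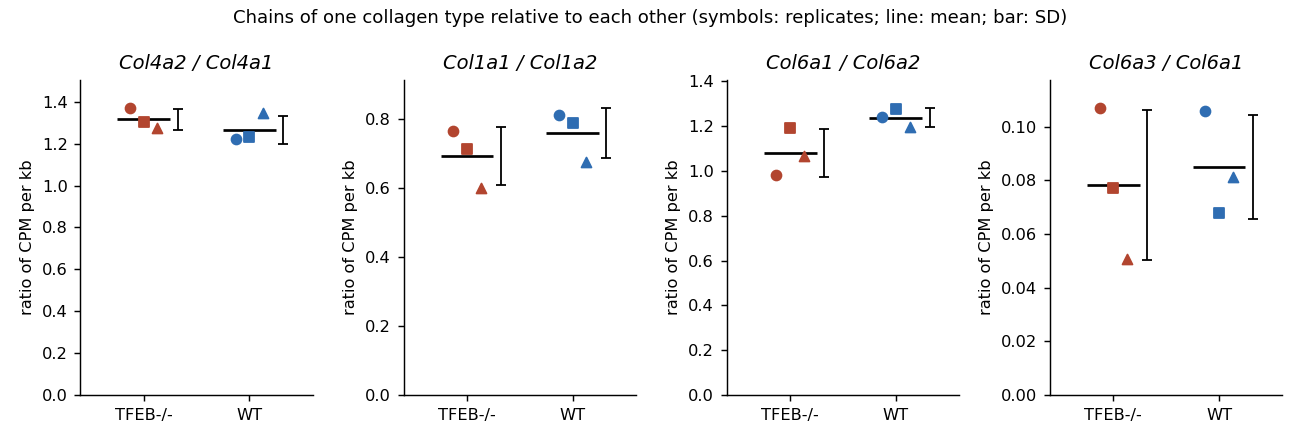
Ratio of CPM per kb (y axis, from 0) between chains of the same collagen type in each library, for Col4a2 over Col4a1, Col1a1 over Col1a2, Col6a1 over Col6a2 and Col6a3 over Col6a1. Symbols mark replicates, lines the means and bars the SD. Col4a2 exceeds Col4a1 in all 6 libraries, and Col6a3 lies near 0.08 of Col6a1 in both groups.

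The multiplexins gave the one chain whose groups did not overlap, where 23.4% of all tested genes did not overlap. Col18a1, whose C-terminal fragment is endostatin, was at 5, 5 and 6 CPM in TFEB-/- libraries, against 4, 4 and 4 CPM in WT libraries (log2 fold change 0.37, SE 0.084, unadjusted p = 0.00743, adjusted p = 0.086 in limma). It is named outside the rule, after its values were seen. The difference was 1 or 2 rounding steps, and with median-ratio scaling it was 0.15 (adjusted p = 0.617 in limma). Its adjusted p was 0.0856 to 0.753 over 14 alternatives. Col15a1 was at 20, 21 and 13 CPM in TFEB-/- libraries and at 22, 15 and 17 CPM in WT libraries, with the same mean of 18 CPM in both groups (SD 4.36 in TFEB-/- and 3.61 in WT; adjusted p = 1 in limma).

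The remaining classes were barely detected. Of 9 fibril-associated chains 3 were tested, Col14a1, Col16a1 and Col20a1, none above 3 CPM in a library. Col8a1, a network chain of vascular and endocardial matrix, was at 2, 3 and 2 CPM in TFEB-/- libraries and at 1, 1 and 2 CPM in WT libraries (adjusted p = 0.23 in limma). The transmembrane chain Col13a1 was listed at 1, 1 and 1 CPM in TFEB-/- libraries and at 1, 0 and 0 CPM in WT libraries, and Col23a1 at 1 CPM in all 6. Leaving out a single library made a call of 2 such chains, Col13a1 without WT replicate 1 (adjusted p = 1.17e-05 in limma) and Col16a1 without WT replicate 3 (adjusted p = 0.00886). In each case the values left had no spread within either group.

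Genes that fold, process, bind or degrade collagen were read beside the chains. Of 105 such genes 85 were tested, 5 passed as higher in TFEB-/- and 0 as lower, where 3.92% of the tested genes passed as higher and 0.523% as lower. At an unadjusted p below 0.05 there were 21 of the 85, a share near the 23.3% of all tested genes. TFEB-/- lay wholly above WT in 21 of the 85 and wholly below in 1, against 21.2% and 2.28% of the tested genes. Their median log2 fold change was 0.27, near the overall 0.24. The 5 genes were the procollagen processing enhancer Pcolce, the collagen receptor Ddr1, the collagen-degrading protease Ctsk, the growth factor Tgfb2 and the TGF-beta co-receptor Tgfbr3.

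Pcolce encodes a secreted protein that binds procollagen and speeds the removal of its C-propeptide by BMP1. It was at 95, 50 and 62 CPM in TFEB-/- libraries, against 18, 20 and 12 CPM in WT libraries. All TFEB-/- libraries lay far above all WT libraries, and the means were 69 ± 23.3 CPM in TFEB-/- and 16.7 ± 4.16 CPM in WT (log2 fold change 2.00, SE 0.32, adjusted p = 0.0444 in limma). The call was kept under the 3 other scalings, the other pseudocount, both other filters and robust hyperparameters. It was lost without any 1 library and with the replicate block, at adjusted p = 0.0585 to 0.136 and log2 fold changes of 1.74 to 2.20. Its substrates Col1a1, Col1a2 and Col3a1 overlapped between the groups, as given above.

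Ddr1, a receptor tyrosine kinase that binds triple-helical collagen, was the 1 called gene of 4 tested collagen receptors. It was at 62, 57 and 58 CPM in TFEB-/- libraries, against 31, 37 and 25 CPM in WT libraries (log2 fold change 0.93, SE 0.15, adjusted p = 0.047 in limma). All TFEB-/- libraries were above all WT libraries. The call was lost with no filter, with the block and without any 1 library but WT replicate 2 (adjusted p = 0.0517 to 0.155), with log2 fold changes of 0.79 to 0.96. Itgb1, the beta subunit of the collagen-binding integrins, averaged 132 ± 16.1 CPM in TFEB-/- and 162 ± 20.1 CPM in WT (adjusted p = 0.254).

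Of 12 tested genes of collagen breakdown and its inhibitors, Ctsk passed, at 2 CPM in each TFEB-/- library and 1 CPM in each WT library, a difference of 1 rounding step with no spread (adjusted p = 0.00023 in limma). The call was lost with median-ratio scaling, without mitochondrial genes and with robust hyperparameters (adjusted p = 0.116 to 0.122). The gelatinase Mmp2 averaged 9.33 ± 0.577 CPM in TFEB-/- and 7.33 ± 1.15 CPM in WT, without overlap, and did not pass (adjusted p = 0.218). The inhibitor Timp2 averaged 48.7 ± 8.62 CPM in TFEB-/- and 27.7 ± 6.66 CPM in WT, also without overlap (adjusted p = 0.12 in limma). It passed with a filter of 5 CPM and with robust hyperparameters. Timp3 averaged 84.3 ± 19.3 CPM in TFEB-/- and 59.7 ± 12.7 CPM in WT, without overlap (adjusted p = 0.269). The inhibitors Timp1 and Timp4 overlapped between the groups. Mmp8, Mmp9 and Mmp13, enzymes that cut native or denatured collagen, were listed at 0 in all libraries.

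Of 17 genes of TGF-beta signalling, which drives collagen synthesis in fibroblasts, 2 passed, beside 4.44% of all tested genes; a share of so few genes says little about the list. Tgfb2 was at 7, 7 and 7 CPM in TFEB-/- libraries, against 4, 5 and 4 CPM in WT libraries (log2 fold change 0.64, SE 0.098, adjusted p = 0.0393 in limma). Tgfbr3 was at 25, 26 and 27 CPM in TFEB-/- libraries, against 20, 18 and 18 CPM in WT libraries (log2 fold change 0.47, SE 0.067, adjusted p = 0.0333). The groups did not overlap in either gene. With median-ratio scaling both calls were lost, at log2 fold changes of 0.42 and 0.23 (adjusted p = 0.158 and 0.285 in limma), and they passed in 4 and 3 of 14 alternatives. Over those alternatives adjusted p ran from 0.0105 to 0.242 for Tgfb2 and from 0.0289 to 0.289 for Tgfbr3.

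No gene of the other 3 lists passed in limma on the deposited scale. Among 20 tested genes of chain modification and folding, 4 had an unadjusted p below 0.05, as had 2 of 15 partners of collagen in the basement membrane and 3 of 9 proteins that bind fibrils, beside 23.3% of all tested genes. P4hb, a subunit of the prolyl hydroxylase that stabilizes the helix and also a general disulfide isomerase, was at 249, 208 and 227 CPM in TFEB-/- libraries, against 158, 151 and 126 CPM in WT libraries. The groups did not overlap, and the adjusted p was 0.0576 in limma (log2 fold change 0.65, SE 0.12). Under 5 of 14 alternatives it passed, with median-ratio scaling at a log2 fold change of 0.42 and adjusted p = 0.0299 in limma (range over the alternatives 0.00987 to 0.18). Serpinh1, the collagen-specific chaperone HSP47, was at 176, 130 and 125 CPM in TFEB-/- libraries and at 191, 138 and 79 CPM in WT libraries (log2 fold change 0.15, adjusted p = 0.824), and its sign turned with median-ratio scaling.

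The most abundant partners of collagen IV in the basement membrane, a laminin chain and perlecan, overlapped between the groups. Lamb2, the laminin beta-2 chain, was at 621, 454 and 552 CPM in TFEB-/- libraries, against 458, 397 and 297 CPM in WT libraries (adjusted p = 0.23 in limma). Hspg2, which encodes perlecan, was at 501, 362 and 430 CPM in TFEB-/- libraries, against 309, 386 and 257 CPM in WT libraries (adjusted p = 0.254). Lama2, the alpha chain of the main laminin of muscle, was named after its values were seen. It was at 20, 30 and 30 CPM in TFEB-/- libraries, against 51, 46 and 39 CPM in WT libraries (log2 fold change −0.77, SE 0.20, adjusted p = 0.115). All TFEB-/- libraries were below all WT libraries. With median-ratio scaling Lama2 passed as lower (log2 fold change −1.01, adjusted p = 0.0354 in limma), and it passed in 4 of 14 alternatives, with adjusted p from 0.0328 to 0.239. Of the proteoglycans that coat collagen fibrils, Dcn averaged 56 ± 13.5 CPM in TFEB-/- and 45 ± 5.29 CPM in WT (adjusted p = 0.437), and Bgn, whose groups did not overlap, averaged 49.7 ± 4.62 CPM in TFEB-/- and 38.3 ± 5.77 CPM in WT (adjusted p = 0.187).

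**Figure D4:**
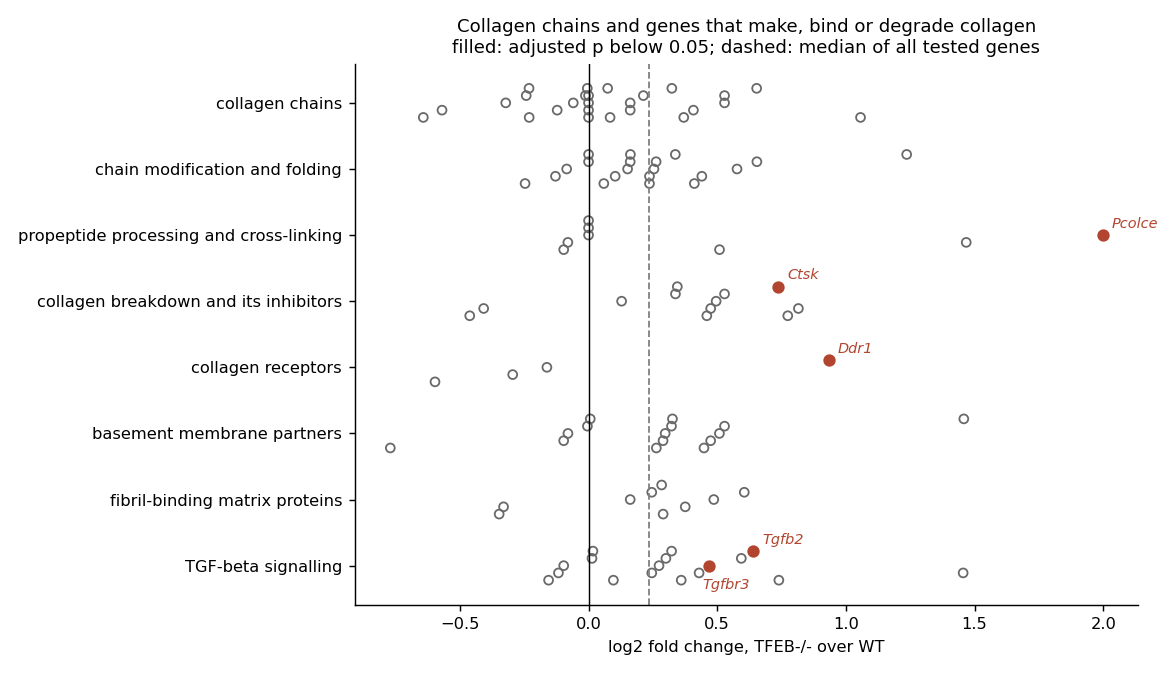
Log2 fold change (x axis, TFEB-/- over WT) of each tested collagen chain and of each tested gene in 7 lists of collagen-related genes (rows; points are spread vertically for legibility). Filled points passed an adjusted p of 0.05 in limma, and the dashed line marks the median of all tested genes. The 5 filled points are Pcolce, Ctsk, Ddr1, Tgfb2 and Tgfbr3, and no collagen chain is among them.

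Markers show which cells the preparations held. The 8 cardiomyocyte markers summed to 58875 to 80653 CPM in TFEB-/- and 48501 to 66905 CPM in WT, led by Myh6 and Actc1. Markers of the cells that make most cardiac collagen were present in all libraries at a far lower level. In such bulk samples fewer cells of a type and less RNA per cell cannot be told apart.

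The 10 endothelial markers, led by Fabp4 and Cdh5, summed to 378, 411 and 452 CPM in TFEB-/- libraries and 519, 425 and 468 CPM in WT libraries. None passed in limma. At an unadjusted p below 0.05 there were 2, Tek and Cldn5, both lower in TFEB-/-, beside 23.3% of all tested genes (2.3% lower). The median log2 fold change of the 10 was −0.17, and none of them lay above the median of all tested genes. WT replicate 1, the library with the highest Col4a1 and Col4a2, had the highest endothelial sum too. Among TFEB-/- libraries the order was the opposite, with the highest collagen IV pair in the library of the lowest endothelial sum. The summed CPM of the pair was 1.20, 0.995 and 0.695 times the endothelial sum in TFEB-/- libraries and 1.11, 0.793 and 0.682 times in WT libraries, which overlap.

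The 8 fibroblast markers summed to 270, 353 and 325 CPM in TFEB-/- libraries and 203, 201 and 205 CPM in WT libraries, which do not overlap. Most of the sum was Gsn, at 202, 245 and 237 CPM in TFEB-/- libraries and 139, 136 and 129 CPM in WT libraries (adjusted p = 0.0214 in limma), a gelsolin gene that other cells express too. Pdgfra passed as well (adjusted p = 0.00336 in limma), at 3 CPM in each TFEB-/- and 2 CPM in each WT library. These are neighbouring rounded values with no spread in either group. Thus 2 of the 8 markers were called higher, beside 3.92% of all tested genes. Without Gsn the list, led by Dcn, summed to 68 to 108 CPM in TFEB-/- and 64 to 76 CPM in WT, and overlapped. At an unadjusted p below 0.05 there were 4 of the 8 markers, all higher in TFEB-/-, beside 21.1% of all tested genes higher. A share of so few markers says little about the list. Besides Gsn and Pdgfra these were Pi16, at 8, 11 and 10 CPM in TFEB-/- libraries and 6 CPM in each WT library (adjusted p = 0.0665 in limma), and Lum, at 6, 9 and 7 CPM in TFEB-/- libraries and 4, 4 and 6 CPM in WT libraries (adjusted p = 0.195). Tcf21, a transcription factor of fibroblasts, was at 1 CPM in all 6 libraries, and Dpt, Ddr2 and Dcn overlapped between the groups.

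The 8 mural markers, led by Abcc9 and Acta2, summed to 553 to 564 CPM in TFEB-/- and 367 to 458 CPM in WT. Only Cspg4 passed, as higher (adjusted p = 0.0374 in limma), beside 3.92% of all tested genes. The median log2 fold change of the 8 was −0.03. It was positive for Abcc9, Cspg4, Acta2 and Tagln and negative for Pdgfrb, Rgs5, Kcnj8 and Myh11. Without Abcc9 and Acta2 the sums were 145 to 173 CPM in TFEB-/- and 158 to 189 CPM in WT. The macrophage list summed to 21 to 24 CPM in TFEB-/- and 12 to 18 CPM in WT, led by Csf1r and Cd68. Of its 7 tested members 0 were called and 1 had an unadjusted p below 0.05, beside 23.3% of all tested genes. Ptprc was at 0. Schwann cell, epicardial and adipocyte lists reached at most 15 CPM in any library, with Cnp, Upk3b and Msln their most abundant members. Of these, the Schwann cell sums did not overlap, at 8, 6 and 9 CPM in TFEB-/- libraries and 5, 4 and 4 CPM in WT libraries, with Cnp, at 6, 4 and 7 CPM in TFEB-/- libraries and 3 CPM in each WT library, making up most of the sum (adjusted p of Cnp 0.110 in limma). On the deposited scale the fibroblast, mural, macrophage and Schwann cell sums were thus higher in each TFEB-/- library, whereas the collagen sums overlapped. With median-ratio scaling the fibroblast sums were 228 to 347 in TFEB-/- and 199 to 251 in WT, and the macrophage sums 19.8 to 23.6 in TFEB-/- and 11.8 to 22.0 in WT, so that both overlapped. The mural sums, 467 to 555 in TFEB-/- and 429 to 450 in WT, did not overlap. These mural sums include Abcc9 and Acta2, without which the sums on the deposited scale overlapped, as given above. The endothelial sums, 319 to 425 in TFEB-/- and 455 to 573 in WT, no longer overlapped and were lower in TFEB-/-. The summed collagen chains still overlapped on that scale, at 429 to 590 in TFEB-/- and 518 to 771 in WT. The part of these cells in the collagen values was not tested.

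**Figure D5:**
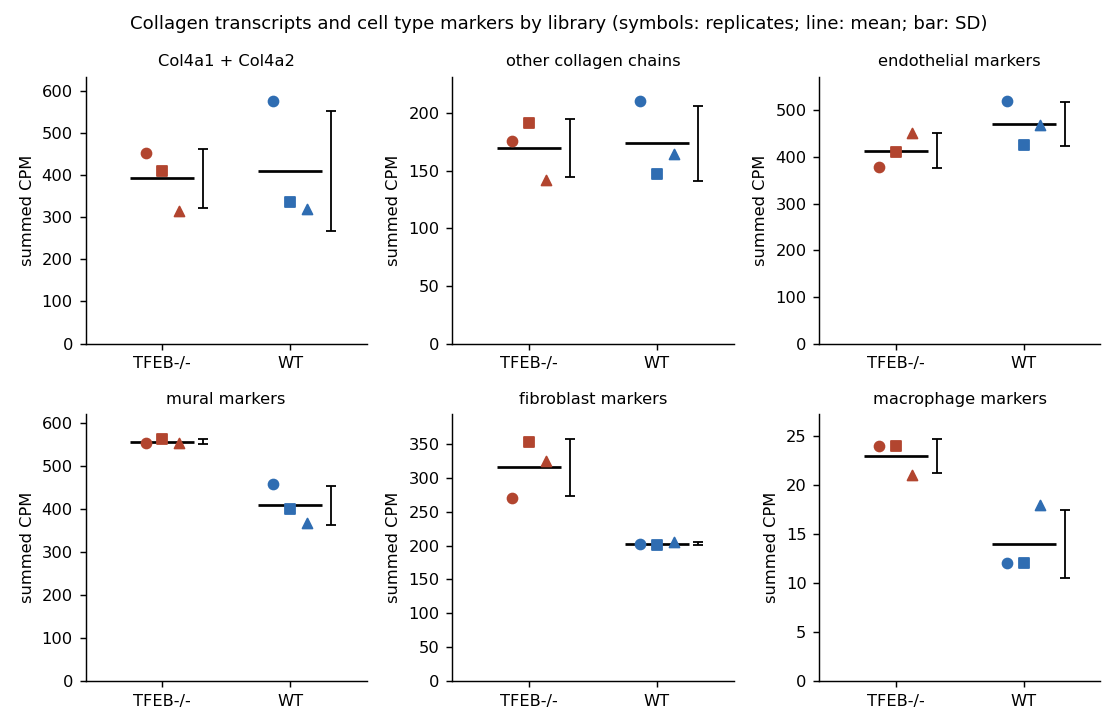
Summed CPM (y axes, from 0) of Col4a1 with Col4a2, of the other collagen chains and of the endothelial, mural, fibroblast and macrophage marker lists in each library. Symbols mark replicates 1, 2 and 3, lines the means and bars the SD. On this deposited scale the collagen and endothelial sums overlap between TFEB-/- and WT and the mural, fibroblast and macrophage sums do not. With median-ratio scaling the fibroblast and macrophage sums overlap and the endothelial sums do not. The mural sums include Abcc9 and Acta2 and the fibroblast sums Gsn, without which both overlap on the deposited scale.

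Over the whole family the summed value was 629, 600 and 456 CPM in TFEB-/- libraries, against 785, 484 and 483 CPM in WT libraries. The means were 562 ± 92.7 CPM in TFEB-/- and 584 ± 174 CPM in WT. Without Col4a1 and Col4a2 the sums were 176, 191 and 142 CPM in TFEB-/- libraries and 210, 147 and 164 CPM in WT libraries. Both pairs of groups overlapped, and in both sums WT replicate 1 was the highest library and TFEB-/- replicate 3 the lowest.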

How the data were processed

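Per the labels, 400 ng of TRIzol-extracted total RNA went into TruSeq Stranded mRNA libraries, read on a NextSeq instrument as pairs of 75 bases. The deposited table holds a score per gene and library, taken from its name to be CPM made with kallisto and rounded by the authors. Per the submitters' processing notes the build was GRCm38, and the tools named, without role or version, were the aligners STAR and HISAT2, the quantifiers kallisto, Salmon and RSEM, StringTie, edgeR and DESeq2. Names turned into dates (26) were restored by Ensembl ID, 303 missing names became IDs, and values sharing a symbol were summed (46450 symbols).

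The 12437 genes at 1 CPM or more in 3 or more libraries were fitted with limma 3.58.1 under R 4.3.3 on log2(CPM + 0.5), with genotype as the only term and a mean-variance trend (two-sided, Benjamini-Hochberg over all 12437). Rounding hides single reads, so no count model was run. Levels per kb used the longest protein-coding transcript in GENCODE M21 (basic set). Nothing says that libraries were separate animals, so p-values measure the spread between these samples.

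The members and gene lists were chosen with earlier results of these data known. Named were chains past the threshold or with a mean of at least 10 CPM, and in each list at most 2 called genes per direction, or else its 2 most abundant. Itgb1, Mmp2, Timp2, Timp3, Col18a1, Lama2, the minor chains and markers with values were named beyond it. Same-numbered libraries did not deviate together in each pair (correlations 0.144, −0.0492 and 0.0883), so replicates were treated as unpaired. Alternatives were 3 other scalings, a pseudocount of 1 CPM, no filter, a filter of 5 CPM, robust hyperparameters, a replicate block and leaving out each library.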

Additional observations from a re-analysis of the deposited data

How the results depend on the processing

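None of the 9 abundant collagen chains passed in any of the 14 alternatives, with a smallest adjusted p of 0.116 in limma; of 126 values, 20 had the other sign. With median-ratio scaling the log2 fold changes of Col1a1, Col1a2, Col6a2 and Serpinh1 were −0.15, −0.021, −0.16 and −0.087, rescaled without mitochondrial genes −0.14, −0.0072, −0.15 and −0.073, and with quantile normalization −0.15, −0.053, −0.18 and −0.082. Leaving out 1 library gave −0.14 to 0.20 for Col15a1, −0.014 to 0.20 for Col1a1, −0.41 to 0.055 for Col3a1, −0.24 to 0.22 for Col4a1, −0.14 to 0.25 for Col4a2, −0.030 to 0.17 for Col6a2 and −0.19 to 0.44 for Serpinh1. The number of collagen chains called higher was 0 to 1 when 1 library was left out. The median log2 fold change of the chains was −0.16, −0.17 and −0.10 under the 3 scalings, whose medians over all genes were near 0.

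Over all tested genes 487 were higher and 65 lower. Lower genes numbered 200 with median-ratio scaling, 188 without mitochondrial genes and 172 with quantile normalization, and higher genes 780 with robust hyperparameters. The replicate block, which the libraries' deviations did not justify as a pairing, gave 159 higher and 26 lower genes and 1 collagen-related gene, Ctsk, and changed no call of a collagen chain. Leaving out 1 library gave 248 to 516 higher genes, 52 to 91 lower genes and 1 to 3 collagen-related genes higher, in place of 5. That count was 8 with a filter of 5 CPM and 8 with robust hyperparameters. Lama2 was the 1 collagen-related gene lower with these 2 settings, with median-ratio scaling and without mitochondrial genes. The causes were not tested.

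Rounding to 1 CPM limits all chains below about 10 CPM, and for 17 of the 26 tested chains the mean was at most 7.67 CPM. Read depth is unknown.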

Other observations

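Of the collagen-related genes with TFEB-/- wholly above WT, 5 of 21 passed, beside 487 higher calls and 2632 such genes over all tested genes. The 4 described here did not pass with the filter of 1 CPM and were picked, after their values were seen, for the largest log2 fold changes among the others. Fkbp10, an endoplasmic reticulum prolyl isomerase that assists procollagen folding, was at 31, 22 and 46 CPM in TFEB-/- libraries, against 10, 15 and 15 CPM in WT libraries (log2 fold change 1.24, adjusted p = 0.114 in limma). Pcolce2, a relative of Pcolce, was at 19, 10 and 11 CPM in TFEB-/- libraries, against 5, 4 and 4 CPM in WT libraries (log2 fold change 1.47, adjusted p = 0.0593). Lamb3, a laminin chain better known from epithelia, was at 69, 35 and 36 CPM in TFEB-/- libraries, against 16, 19 and 13 CPM in WT libraries (log2 fold change 1.46, adjusted p = 0.0823). Ctgf, a matricellular protein induced by TGF-beta, was at 154, 208 and 362 CPM in TFEB-/- libraries, against 80, 131 and 53 CPM in WT libraries (log2 fold change 1.46, adjusted p = 0.167). All 4 passed with a filter of 5 CPM, and all but Ctgf with robust hyperparameters.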
